A study of Mus musculus with 25 samples.

Results

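Calmodulin-dependent kinases, calcineurin and neurogranin read and limit the calcium signal in neurons of the hippocampus. The 10 genes examined were Camk2a, Camk2b, Camk2d and Camk2g, which encode the 4 chains of calcium/calmodulin-dependent kinase II, Camk4, Camkk1 and Camkk2, which encode a nuclear calmodulin-dependent kinase and the kinases that switch it on, Ppp3ca and Ppp3cb, which encode catalytic chains of the phosphatase calcineurin, and Nrgn, which encodes neurogranin. Their probe sets were taken by name: every probe set that the Mouse 430_2.0 annotation assigns to a single one of these genes was kept, which gave 34 of the 45101 probe sets on the array, for 9 of the 10 genes. Camk2d had 7 probe sets, Camk2a 6, Camk4 and Ppp3cb 5 each, Camkk2 4, Ppp3ca 3, Camk2g 2, and Camk2b and Nrgn 1 each. No probe set was assigned to Camkk1 alone, so Camkk1 has no value here.

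All 25 mice were female Balb c/J, an inbred strain, with no engineered allele. The 11 handled mice had been taken from their mothers for 15 min each morning from postnatal day 1 to 14, whereas the 14 non-handled mice were left undisturbed. All were tested for behavior at 8 weeks of age, and the CA1 region of the hippocampus was dissected 2 weeks later and hybridized to 1 array per mouse after a double round of amplification. RNA was extracted with RNA/DNA columns from 7 handled and 10 non-handled mice and with Trizol from 4 handled and 4 non-handled mice. Handling was done by litter, and which mouse came from which litter is not given in the sources used here, so the p-values treat mice as independent.

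When calcium enters a neuron it binds calmodulin, and the complex activates the kinases and calcineurin. Kinase II is an abundant protein of the postsynaptic density, can phosphorylate itself and then stays active after calcium has fallen, and is required for long-term potentiation in CA1. Calcineurin removes phosphate groups, acts in long-term depression and moves NFAT factors into the nucleus. Neurogranin binds calmodulin when calcium is low and releases it when calcium rises. Camkk2 and Camkk1 activate Camk4, which phosphorylates the transcription factor CREB.

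The deposited values were MAS 5.0 signals, an intensity on a linear scale in which each array is scaled by a single factor. Differences were fitted on log2 signal with handling and extraction as terms, and a probe set was called at an adjusted p under 0.05 over all 45037 probe sets that are not controls. Mean signal per array ran from 737 to 910. The spread of log2 signal over an array moved with handling: its variance was 7.96 to 8.83 in handled and 5.99 to 7.83 in non-handled column arrays, and 6.64 to 7.73 and 5.93 to 6.63 in the Trizol arrays, so that the groups did not overlap under either extraction. With that variance as a covariate the number of all probe sets called for handling went from 5185 to 67. None of the handling calls of member probe sets below remained. Other genes named below and the extraction calls were not looked at under this covariate.

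Of the 34 probe sets, 4 were called between handled and non-handled mice. Nrgn and 1 probe set of Camk2a were lower in handled mice, and 1 probe set each of Camk4 and Ppp3cb was higher. The 4 calls were 11.8% of the members, against a background of 11.5% of all tested probe sets called in either direction, 3.58% higher and 7.93% lower. At an unadjusted p under 0.05 there were 11 members, or 32.4%, against 27.9% of all tested probe sets. The median difference of the members was -0.07 on the log2 scale, against -0.15 over all tested probe sets. Among the 21 members in the upper 50% of mean signal the median was 0.06 against -0.02, and among the 13 in the lower 50% it was -0.27 against -0.42. The calls thus came at about the rate of the array as a whole. Over the array 35.7% of probe sets had higher fitted values in handled mice, and 31.1% of calls were higher. After quantile normalization that share of calls was 45.2%, and with equal mean and variance 48.2%, with 1 of 3 and 1 of 4 member calls higher.

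**Figure D1:**
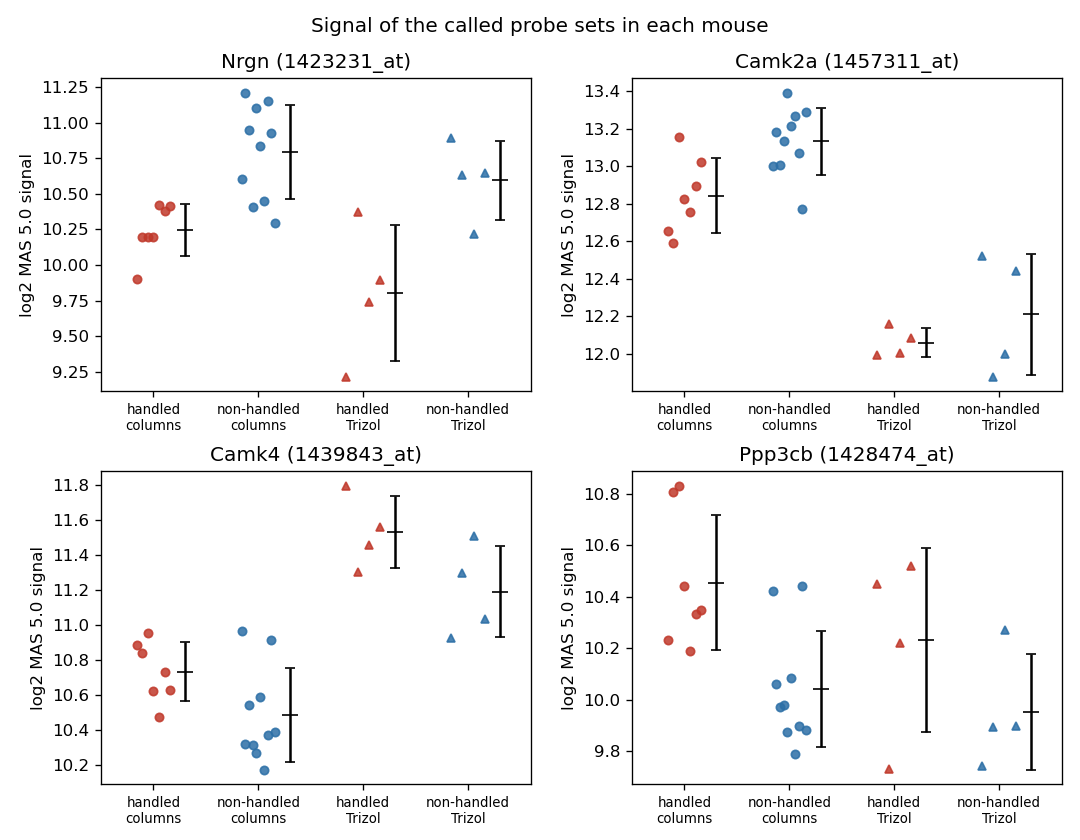
Log2 MAS 5.0 signal (vertical axis) of the 4 called probe sets, with 1 point per mouse in the 4 groups of handling and extraction (circles, columns; triangles, Trizol) and bars for the mean ± SD beside each group. Handled groups lie lower for Nrgn and Camk2a and higher for Camk4 and Ppp3cb, and single mice of the groups overlap in each panel.

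Nrgn was 1.55-fold lower in handled mice, the largest change among the 4 calls. The Nrgn gene lies on chromosome 9 from 37544493 to 37552745 in GRCm38.p6. In mice extracted with columns the signal had a low of 956, a median of 1175 and a high of 1370 in handled mice, and a low of 1259, a median of 1889 and a high of 2372 in non-handled mice. All 7 handled mice lay below the non-handled median and 4 lay below every non-handled mouse. With Trizol the 4 handled mice had signals of 593, 856, 954 and 1324, and the 4 non-handled mice 1190, 1588, 1600 and 1898. Of those handled mice 3 lay below all non-handled mice, and 1 was within their range. The fitted difference was -0.63 (SE 0.117, 95% interval -0.87 to -0.39, n = 25, limma adjusted p = 0.000686). It was -0.55 within columns (adjusted p = 0.00606) and -0.79 within Trizol, where no probe set of the array was called and the unadjusted limma p for Nrgn was 0.00202. Leaving out each mouse in turn gave -0.68 to -0.56 and never ended the call, while the array variance covariate gave -0.47 (adjusted p = 0.389).

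Nrgn is a gene of pyramidal neurons, and the dissected tissue holds several cell types, so fewer cells of a type and less RNA per cell cannot be told apart. Of the CA1 pyramidal markers 4 of 5 were measured, namely Wfs1, Fibcd1, Pou3f1 and Mpped1, and 0 were called for handling by limma. None of these 4 had an unadjusted p under 0.05, against 5757 of the brightest probe sets of all 18193 genes. Over the brightest probe sets of all genes 4.47% were called higher and 9.7% lower, a rate at which few of 4 genes would be called. Their summed signal was 21896 to 31194 in handled and 15123 to 32482 in non-handled column mice, and 12226 to 20396 and 13290 to 22608 in the Trizol mice. Of 4 general pyramidal markers, Neurod2 was lower in handled mice by -0.76 (adjusted p = 8.65e-06), while Neurod6, Nrn1 and Slc17a7 were not called. Their summed signal was 12931 to 17089 and 14006 to 16515 with columns, and 9708 to 12091 and 9836 to 11471 with Trizol. The part of cell composition in the Nrgn difference was not tested beyond these values.

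The promoters of the called genes Nrgn and Ppp3cb, 250 bases before to 50 bases after the start in RefSeq on GRCm38.p6, are shown as the regulatory sequence next to one gene that was lower and one that had a higher probe set. Both are on the minus strand and are written 5′ to 3′, Nrgn at chr9:37552696-37552995 and Ppp3cb at chr14:20546524-20546823. Capitals mark TGACG, the CREB half-site, searched on both strands because CREB is the factor that Camk4 phosphorylates.
Nrgn: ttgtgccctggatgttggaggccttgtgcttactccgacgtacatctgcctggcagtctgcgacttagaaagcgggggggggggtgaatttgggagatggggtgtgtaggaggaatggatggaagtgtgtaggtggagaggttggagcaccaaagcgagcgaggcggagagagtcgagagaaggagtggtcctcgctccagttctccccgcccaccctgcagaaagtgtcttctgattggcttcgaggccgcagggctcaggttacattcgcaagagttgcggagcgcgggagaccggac
Ppp3cb: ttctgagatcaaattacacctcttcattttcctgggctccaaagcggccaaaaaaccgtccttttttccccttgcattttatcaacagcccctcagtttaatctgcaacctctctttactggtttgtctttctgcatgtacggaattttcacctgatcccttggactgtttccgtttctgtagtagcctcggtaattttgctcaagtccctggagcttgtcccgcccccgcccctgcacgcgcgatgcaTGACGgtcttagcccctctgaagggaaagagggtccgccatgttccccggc
The Ppp3cb window held 1 TGACG and the Nrgn window held none. TGACG was present in 20.8% of 32851 promoters of the same length, and the full palindrome TGACGTCA, which contains TGACG, in 1.79% and in neither window. A match is a description of letters and not a binding site. The table held a promoter for 6 of the 8 member genes searched.

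Camk2a, the alpha chain of kinase II and the main isoform of excitatory forebrain neurons, had lower fitted values in handled mice for all 6 probe sets on the deposited scale and for 4 of 6 after quantile normalization or with equal mean and variance, and 1 of the 6 was called lower. That probe set, 1457311_at, is the one with the highest mean signal. With columns its signal was 6169 to 9115 with a median of 7261 in handled mice and 7006 to 10754 with a median of 9143 in non-handled mice. All 7 handled mice lay below the non-handled median and 3 lay below all non-handled mice. With Trizol the handled mice had signals of 4086, 4104, 4349 and 4573, inside the range of the non-handled mice at 3760, 4094, 5574 and 5880. The fitted difference was -0.24 (SE 0.0825, n = 25, limma adjusted p = 0.0494), a 1.18-fold lower signal. The value for 1437125_at, the other bright Camk2a probe set, was -0.22 (adjusted p = 0.0874). Within columns both were -0.29 (adjusted p = 0.0471 and 0.0409), and within Trizol they were -0.15 and -0.07.

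The Camk2a call lay near the threshold. It held in 7 of 25 fits that each left out 1 mouse (H110, H123, H126, NH142, NH144, NH146 or NH167) and was lost in the other 18, with adjusted p from 0.0214 to 0.105 and differences from -0.28 to -0.21. With equal mean and variance the values were larger, -0.42 for 1457311_at (adjusted p = 0.00566) and -0.33 for 1437125_at, which was then called too (adjusted p = 0.0199). The other 4 Camk2a probe sets had differences from -0.57 to -0.11 and none was called.

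The 2 bright Camk2a probe sets followed each other from mouse to mouse. After handling and extraction were removed, their deviations correlated with Pearson r = 0.85 (permutation p = 4e-05, adjusted 0.0010 over the 25 pairs of member probe sets) and Spearman rho = 0.81 (permutation p = 0.00014, adjusted 0.0035). Without the 2 mice farthest from the median r was 0.78, and it was 0.82 within columns and 0.89 within Trizol. This was the highest correlation among the 25 pairs, whose median was 0.15 and whose range was -0.58 to 0.85, with 18 above 0. Over 16752 such pairs of all genes the median was 0.10. When both probe sets were in the upper 50% of mean signal the medians were 0.22 over 12 member pairs and 0.20 over 8063 pairs of all genes. Deviations on 1 array share its hybridization and scaling, so these correlations include whatever moves a whole array.

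**Figure D2:**
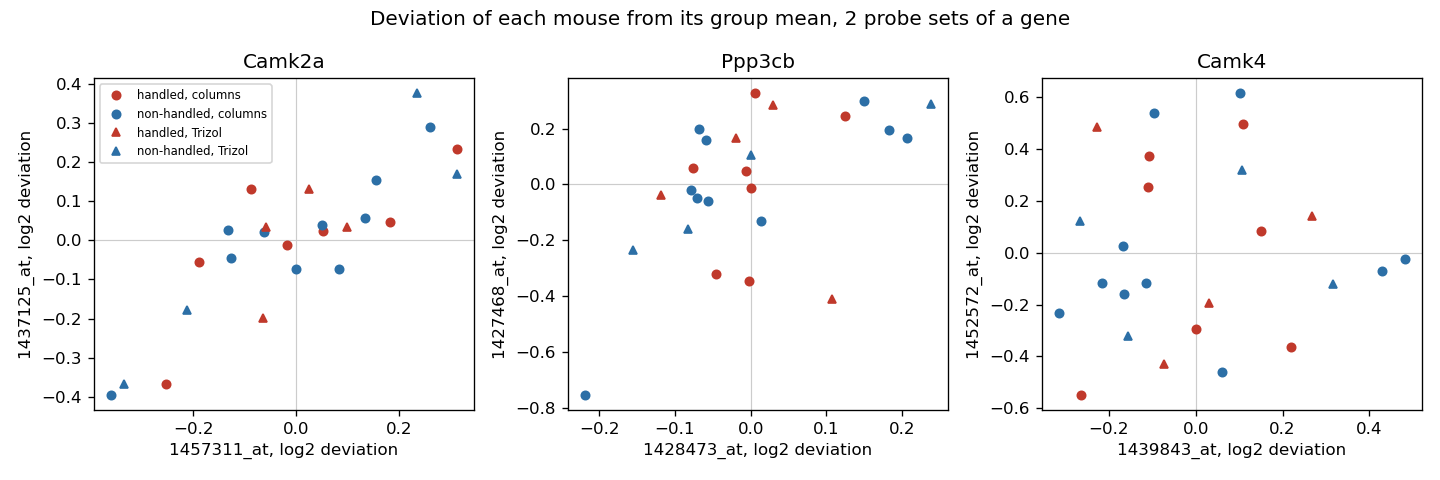
Each point is a mouse, and the axes give the log2 deviation from the mean of its own group of handling and extraction for 2 probe sets of Camk2a, Ppp3cb and Camk4. The Camk2a points lie along a line (r = 0.85), those of the Ppp3cb pair with the highest r among its 4 pairs scatter more widely (r = 0.55) and those of Camk4 show little relation (r = 0.06).

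Against this agreement, 1443876_at, also assigned to Camk2a alone, differed 9.56-fold between the extraction methods in the opposite direction. Its signal was 164.6 to 490 in the 17 column mice and 1987 to 3436 in the 8 Trizol mice, with no overlap, whereas 1457311_at was 6169 to 10754 with columns and 3760 to 5880 with Trizol, again with no overlap. The fitted extraction differences, columns minus Trizol, were -3.26 (SE 0.166, limma adjusted p = 3.1e-17) for 1443876_at and 0.86 (SE 0.0878, adjusted p = 6.82e-10) for 1457311_at. The difference between the 2 probe sets was -4.11 (limma adjusted p = 4.01e-13). The handling difference of 1443876_at was -0.12 (adjusted p = 0.66). Across mice its deviations correlated with those of 1457311_at at r = 0.04 (permutation p = 0.851). Where each probe set lies in the Camk2a transcript is not given in the sources used here.

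**Figure D3:**
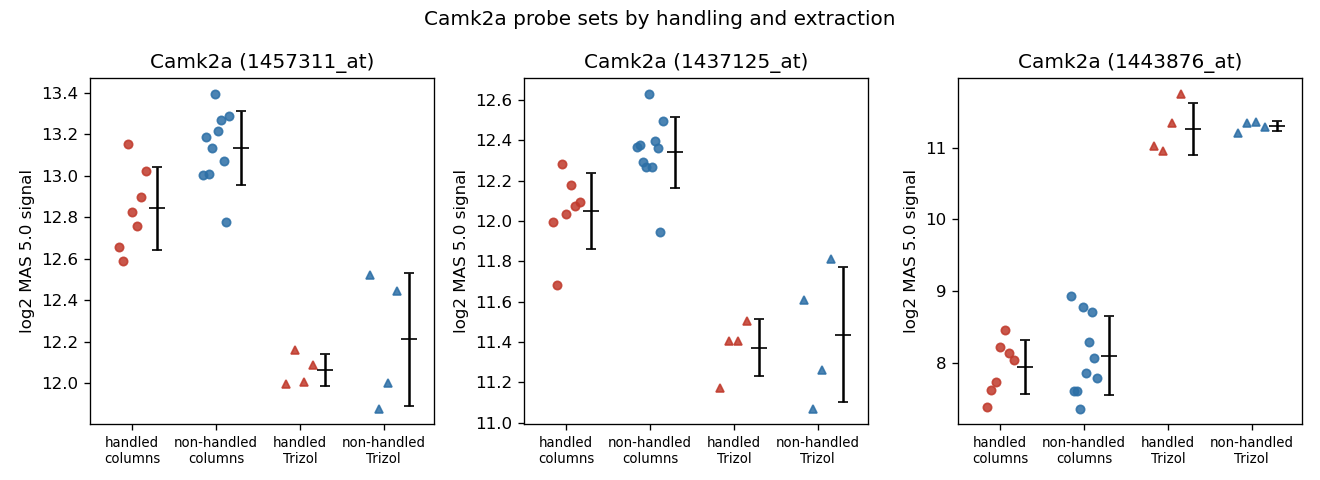
Log2 signal of 3 Camk2a probe sets in each mouse by handling and extraction (circles, columns; triangles, Trizol), with mean ± SD bars. Column mice lie above Trizol mice for 1457311_at and mostly so for 1437125_at, and far below them for 1443876_at, at 164.6 to 490 against 1987 to 3436 on the linear scale.

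The other chains of kinase II were not called for handling. Camk2b, the beta chain that binds actin, had 1 probe set. With columns its signal was 5581 to 7380 with a median of 6250 in handled mice and 2635 to 6757 with a median of 5309 in non-handled mice, and all 7 handled mice lay above the non-handled median. With Trizol the groups overlapped, at 3320, 3773, 4364.9 and 4834 in handled and 2998, 3020, 4632 and 5578 in non-handled mice. The difference was 0.22 (SE 0.116, adjusted p = 0.215), and 0.15 without NH162, the mouse with the lowest Camk2b signal. NH162 also had the highest ratio of 3' to 5' Actb probe sets, 3.24 on the log2 scale against a group median of 1.78, and with the 3' to 5' ratios of Gapdh and Actb as covariates the Camk2b handling difference was 0.08 (adjusted p = 0.523).

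Camk2d, the delta chain, which is found in many tissues, gave the least uniform picture. Its brightest probe set, 1422659_at, had a difference of 0.54 (SE 0.218, adjusted p = 0.0979) made of opposite values under the extraction methods, 0.97 within columns (adjusted p = 0.00944) and -0.33 within Trizol. With columns the signal was 180 to 397 with a median of 209 in handled mice and 69.4 to 219 with a median of 123.05 in non-handled mice, so that all 7 handled mice lay above the non-handled median. With Trizol it was 139, 226, 279 and 416 in handled and 248, 275, 350 and 383 in non-handled mice. The interaction of handling and extraction had an unadjusted p of 0.00344 and was not called (limma adjusted p = 0.459). Without H126 the pooled difference was 0.67 and was called (adjusted p = 0.0273). Of the 7 Camk2d probe sets 6 were in the lower 50% of mean signal. On the deposited scale 2 of the 7 had higher and 5 lower fitted values in handled mice, from -0.79 to 0.99. After quantile normalization 5 of the 7 were higher, with a lowest value of -0.36. With equal mean and variance 5 were also higher, with a lowest value of -0.31. The dimmest 1 correlated negatively with the brightest 1 over mice (r = -0.58, permutation p = 0.00069, adjusted 0.00862).

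Camk2g, the gamma chain, had a brightest probe set with signals of 1315 to 2300 in handled and 1254 to 1720 in non-handled column mice, with medians of 1515 and 1461. The Trizol mice had 1151, 1268, 1326 and 1772 when handled and 1397, 1450, 1454 and 1890 when not. Its difference was 0.05 (95% interval -0.14 to 0.23, adjusted p = 0.792), and the sign turned without H108 (-0.02). The second Camk2g probe set was -0.40 (adjusted p = 0.0763), below the non-handled median in 7 of 7 column and 4 of 4 Trizol handled mice.

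Camk4 was called higher in handled mice for 1439843_at, its brightest probe set, by 1.21-fold. With columns the signal was 1418 to 1983 with a median of 1702 in handled mice and 1150 to 1997 with a median of 1329 in non-handled mice. All 7 handled mice lay above the non-handled median, and 0 lay above all non-handled mice. With Trizol the values were 2530, 2816, 3023 and 3563 in handled and 1943, 2099, 2516 and 2913 in non-handled mice, with 2 handled mice above all 4 non-handled mice. The fitted difference was 0.28 (SE 0.0916, limma adjusted p = 0.0429). It kept the call in 10 of 25 fits without 1 mouse (H116, H117, H123, H126, H130, NH142, NH144, NH146, NH163 or NH167) and lost it in 15, at adjusted p up to 0.082, and it was not called after quantile normalization (0.25, adjusted p = 0.0907).

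On the deposited scale the other Camk4 probe sets did not share that sign throughout. Values were -0.21 for 1426167_a_at, -0.32 for 1452572_at, and 0.49 for 1421941_at and 1441974_at, and none of these was called. All but 1426167_a_at were in the lower 50% of mean signal, where the median over all tested probe sets was -0.42. After quantile normalization 4 of the 5 Camk4 probe sets had positive values, and the lowest was -0.03. With equal mean and variance 4 of 5 were also positive, and the lowest was -0.05. The difference between 1452572_at and 1439843_at was -0.60 (SE 0.182), with a limma adjusted p of 0.05004 in the test of pairs. In 7 of 25 fits that left out 1 mouse (H123, H126, NH142, NH146, NH147, NH156 or NH167) 1 of the member pairs passed. The smallest limma adjusted p over the member pairs was 0.0158 to 0.0972 in the 25 fits. Which pair passed in those fits was not recorded. With columns the signal of 1452572_at was 49.96 to 103 with a median of 77.4 in handled mice and 76.5 to 161 with a median of 98.7 in non-handled mice, and with Trizol it was 82.3 to 155.03 and 83.0 to 130. Handled mice were thus lower than the non-handled median in 6 of 7 column mice and in 2 of 4 Trizol mice.

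Camkk2, the kinase that activates Camk4 and also AMP-activated kinase, had a difference of 0.06 (95% interval -0.14 to 0.26, limma adjusted p = 0.733) for its brightest probe set. The column signals were 2268 to 3069 with a median of 2669 in handled mice and 1922 to 3159 with a median of 2517 in non-handled mice. With Trizol they were 1645, 1969, 2196 and 2339 in handled and 1509, 1682, 2398 and 3134 in non-handled mice, and both groups overlapped under both methods. The other 3 probe sets had values of -0.20, -0.10 and -1.19, the last in the lower 50% of mean signal, and none was called.

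The calcineurin chains had positive handling values for all 8 probe sets on the deposited scale and after quantile normalization, but with equal mean and variance for 0 of 3 of Ppp3ca and 4 of 5 of Ppp3cb, and 1 of the 8 was called. Ppp3cb, the catalytic beta chain, was higher in handled mice for 1428474_at by 1.29-fold. With columns the signal was 1168 to 1823 with a median of 1302 in handled mice and 885 to 1391 with a median of 1007 in non-handled mice. All 7 handled mice lay above the non-handled median, and 3 above all non-handled mice. With Trizol the values were 849, 1192, 1400 and 1469 in handled and 857, 950, 955 and 1236 in non-handled mice, and H126 was the lowest of all 8. The fitted difference was 0.37 (SE 0.1000, 95% interval 0.17 to 0.57, limma adjusted p = 0.0154), 0.41 within columns (adjusted p = 0.0195) and 0.28 within Trizol (unadjusted p = 0.15). The call held in each of the 25 fits without 1 mouse (0.33 to 0.42).

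The brightest Ppp3cb probe set, 1428473_at, had a smaller value, 0.12 (SE 0.0687, adjusted p = 0.277). Its column signals were 20132 to 23128 with a median of 21176 in handled mice and 17276 to 23204 with a median of 19319 in non-handled mice. With Trizol they were 20014, 21435, 22171 and 23396 in handled and 17063, 17951, 19017 and 22413 in non-handled mice. All 11 handled mice lay above the median of the non-handled mice of their extraction method. The pair test did not separate 1428474_at from 1428473_at (difference 0.25, SE 0.129, adjusted p = 0.246). The remaining Ppp3cb probe sets had values of 0.28 (adjusted p = 0.0941), 0.12 and 0.51. The first of these, 1427468_at, was 0.46 within columns (adjusted p = 0.019) and -0.07 within Trizol, and its deviations followed those of 1428473_at with r = 0.55 (permutation p = 0.00676, adjusted 0.0563). The other Ppp3cb probe sets followed it less or not at all: r was 0.15 for the called 1428474_at, -0.39 for 1433835_at and 0.22 for 1446149_at, with adjusted permutation p of 0.665, 0.269 and 0.617.

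Ppp3ca, the catalytic alpha chain and the main one in brain, had values of 0.08, 0.13 and 0.13 for its 3 probe sets, none of them called. Its brightest probe set had column signals of 22763 to 28625 with a median of 27160 in handled mice and 22617 to 28602 with a median of 26486 in non-handled mice. With Trizol the handled mice had 29709, 32959, 34315 and 36392 and the non-handled mice 27339, 28694, 29446 and 32638, so that 3 handled mice lay above all non-handled mice. The fitted difference was 0.08 (95% interval -0.06 to 0.22, adjusted p = 0.489). With arrays set to equal mean and variance the value was -0.24 (adjusted p = 0.121), and that of Ppp3cb 1428473_at was -0.17 (adjusted p = 0.196), so neither sign was fixed across scalings.

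**Figure D4:**
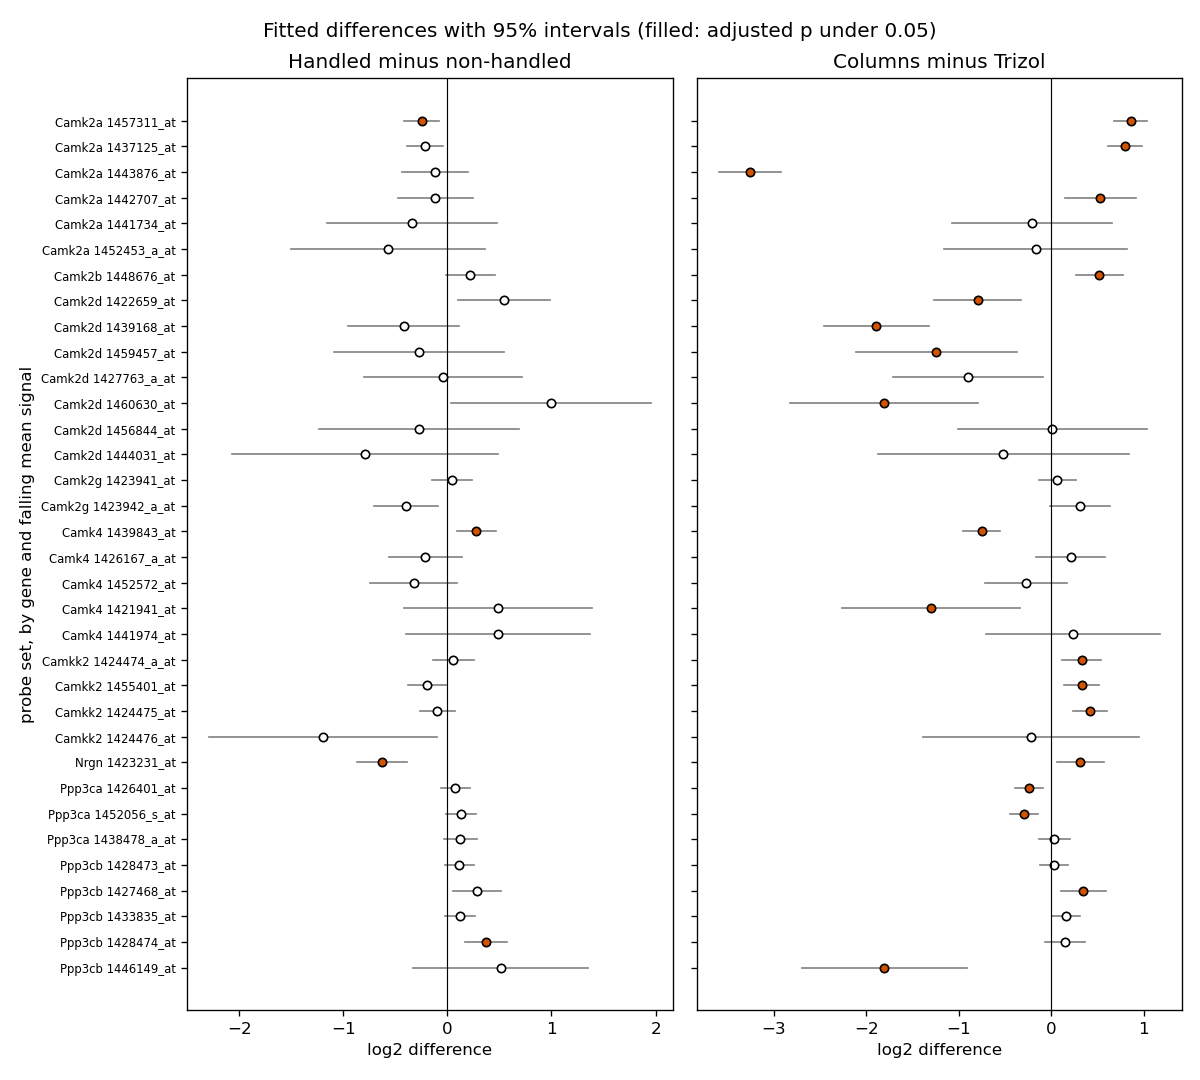
Fitted log2 differences (points) with 95% intervals (lines) for all 34 probe sets, ordered by gene and falling mean signal, handled minus non-handled on the left and columns minus Trizol on the right, with filled points for an adjusted p under 0.05. There are 4 filled points on the left and 19 on the right, and the horizontal scales differ.

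Probe sets of 1 gene were compared directly within each array, which removes the scaling factor of the array. Of the 25 pairs of a further probe set with the brightest of its gene, 0 were called for a different handling response in limma. Over all genes 996 of 16752 such pairs, 5.95%, were called, a rate at which few of 25 pairs would be. In the member pairs 6 had an unadjusted p under 0.05, and that share over all pairs was not computed. Of the 7 genes with several probe sets, Camk2a had lower values throughout and Ppp3ca and Ppp3cb higher values throughout on the deposited scale, with the exceptions under other scalings given above, and 4 had both signs. No member probe set was called for the interaction of handling and extraction in limma, against 0.0511% of all probe sets. At an unadjusted p under 0.05 there were 3 of the 34 members, against 3365 of all 45037 tested probe sets.

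More of these probe sets were called for the extraction method than for handling. Of the 4 called for handling, Nrgn and Ppp3cb 1428474_at had a handling difference larger in size than that of extraction. The same held for some probe sets not called for handling, such as Camk2g 1423942_a_at, at -0.40 for handling and 0.31 for extraction. Extraction was called for 19 of 34 probe sets, 9 higher and 10 lower with columns (13 and 7 of 20 with equal mean and variance), which is 55.9% against a background of 39.8% (16.5% higher and 23.3% lower). Within the brighter 50% of probe sets the shares were 66.7% and 58.7%. Besides Camk2a, Camk2b was higher with columns by 0.52 (adjusted p = 0.000805) and Camkk2 by 0.33 (adjusted p = 0.00961), while Camk4 1439843_at was lower by -0.75 (adjusted p = 8.27e-08), Camk2d 1422659_at by -0.80 (adjusted p = 0.00544) and Ppp3ca by -0.24 (adjusted p = 0.00833). The Camk2d difference was not called after quantile normalization (-0.48, adjusted p = 0.142) or with equal mean and variance (-0.55, adjusted p = 0.0795), and that of Ppp3ca was -0.49 after quantile normalization (adjusted p = 2.02e-05) and not called with 3' to 5' ratios as covariates (-0.20, adjusted p = 0.236). Nrgn was higher with columns by 0.31 (adjusted p = 0.0438), a call lost in 16 of the 25 fits without 1 mouse (0.22 without H113, adjusted p = 0.155) and after quantile normalization (0.31, adjusted p = 0.0549). It was 0.79 with 3' to 5' ratios as covariates (adjusted p = 0.00266) and 0.42 with equal mean and variance (adjusted p = 0.00756). The brightest Ppp3cb and Camk2g probe sets were not called. The extraction response differed between probe sets of 1 gene in 6 of 25 member pairs, 1 or 2 pairs a gene in Camk2a, Camk2d, Camk4, Ppp3ca and Ppp3cb, against 28.4% of all pairs. One of these, Camk2d 1439168_at, was 15.1 to 101 with columns and 120 to 296 with Trizol, with no overlap. Extraction also moved the markers. All 4 measured CA1 markers, 6 of 6 astrocyte markers and 5 of 5 measured oligodendrocyte markers were called higher with columns. The neuronal, CA3 and dentate granule lists each held 1 marker called lower, namely Map2 (-0.24), Cpne4 (-1.16) and Prox1 (-0.66). These lists had 1, 2 and 0 markers called higher. Of the brightest probe sets of all 18193 genes, 4316 were called higher with columns and 3178 lower. Among the 4504 tested probe sets with the strongest signal, 2335 were higher and 918 lower. The summed signal of the 6 microglial markers was 15206 to 24695 with columns and 7118 to 10663 with Trizol, and the part of tissue composition in the extraction differences was not tested.

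Genes that act with these enzymes were followed in a list, of which 43 were measured by a probe set assigned to them alone. In handled mice 3 of the 43 were higher and 7 lower, or 6.98% and 16.3%, against 4.47% and 9.70% of the brightest probe sets of all 18193 genes, with a median of -0.01 against -0.12 over those probe sets. The 3 that were higher were Akap5, which anchors calcineurin at the synapse, by 0.56 (SE 0.151, adjusted p = 0.0154), Marcks, which binds calmodulin at the membrane, by 0.25 (SE 0.066, adjusted p = 0.0125), and Pde1a, a calmodulin-activated phosphodiesterase named here after its value was seen, by 0.24 (SE 0.0805, adjusted p = 0.0494). Among the lower genes Camta2 and Camta1, calmodulin-binding transcription activators, had -0.50 (SE 0.0771, adjusted p = 6.18e-05) and -0.34 (SE 0.0864, adjusted p = 0.0109). Crtc1, a CREB coactivator that calcineurin dephosphorylates, was at -0.37 (SE 0.104, adjusted p = 0.0192), and Nos1, the calmodulin-dependent nitric oxide synthase of neurons, at -0.33 (SE 0.0964, adjusted p = 0.0255). Ppp3r1, the regulatory chain of calcineurin, was 0.21 (SE 0.102, adjusted p = 0.176) and was not called.

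The genes whose deviations over the 25 arrays were most like those of 3 members were also listed, as a description with no test. For Nrgn they were Rasgrf1, a calmodulin-dependent exchange factor for Ras (r = 0.85), Cdh4 (r = 0.83) and Arfgap2 (r = 0.79). Rasgrf1 was lower in handled mice by -0.68 (adjusted p = 0.000537) and Arfgap2 by -1.01 (adjusted p = 0.00187), while Cdh4 had 0.17 and was not called. For Camk2a 1457311_at the most alike were Stum (r = 0.80), Sik3 (r = 0.79) and As3mt (r = 0.75). Stum was lower in handled mice by -0.28 (limma adjusted p = 0.027), while Sik3 at -0.13 and As3mt at 0.18 were not called. For Ppp3ca the most alike were Trim2 (r = 0.85), Ube3c (r = 0.80) and Zfand6 (r = 0.78). Ube3c was lower in handled mice by -0.26 (limma adjusted p = 0.0399), while Trim2 at 0.07 and Zfand6 at -0.03 were not called.

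Markers of other cells that the dissection could hold were compared in the same fit. In it 4.47% of the brightest probe sets of all 18193 genes were called higher and 9.7% lower. At an unadjusted p under 0.05 there were 5757 of those probe sets. Of 5 dentate granule markers 0 were called for handling, with no unadjusted p under 0.05, and the summed signal was 705 to 1356 with columns and 514 to 1378 with Trizol. Of 6 interneuron markers Gad1 and Gad2 were higher in handled mice and Pvalb lower, and the summed signal was 16266 to 20228 in handled and 12061 to 17120 in non-handled column mice and 13606 to 20045 and 12425 to 15110 with Trizol. Of 4 endothelial markers Cldn5 and Kdr were lower, with summed signals of 1929 to 2928 and 1651 to 3559 with columns and 1333 to 1495 and 1750 to 3069 with Trizol. In the remaining lists single markers were called: Map2 of 5 neuronal (0.23, adjusted p = 0.0276), Aqp4 of 6 astrocyte (0.32, adjusted p = 0.0195) and P2ry12 of 6 microglial markers (0.24, adjusted p = 0.0361) were higher, and Folr1 of 3 choroid plexus and ependymal markers was lower (-0.86, adjusted p = 0.0232). With columns the summed signals of these 4 lists in handled and non-handled mice were 80318 to 90230 and 65106 to 81426 for neurons, 54877 to 63407 and 51583 to 82470 for astrocytes, 15206 to 22563 and 16027 to 24695 for microglia, and 104 to 299 and 180 to 442 for choroid plexus and ependyma. With Trizol they were 81907 to 87873 and 74675 to 83110, 43413 to 55021 and 39866 to 47425, 7668 to 8467 and 7118 to 10663, and 139 to 267 and 165.4 to 2897 in the same order. Of the 5 CA3 and 5 measured oligodendrocyte markers 0 were called, with no unadjusted p under 0.05. The part of these cells in the member differences was not tested.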

How the data were processed

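CA1 RNA of 25 mice was hybridized to Mouse 430_2.0 arrays. The authors made the deposited table with Affymetrix Expression Console, per the labels, as linear intensity from MAS 5.0, in which 1 factor scales an array and distributions are left as they are. No background correction was added, no member value lay at the ceiling of 65535, and no column was left out. Extraction method was read from sample positions stated in the labels. Of 45101 probe sets, 64 controls were left out of tests, and the platform annotation assigns 34958 to 1 gene, 932 to several and 9211 to none.

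Log2 signal was tested with limma 3.58.1 (R 4.3.3; trended prior, two-sided, Benjamini-Hochberg over 45037 probe sets), with handling and extraction as terms. Pair tests used within-array log2 differences over 16752 pairs. Residual correlations used 100000 permutations within groups. Python 3.11.15, pandas 2.3.3, numpy 2.4.6, scipy 1.17.1 and matplotlib 3.10.9 were used. The fit was tested on simulated data with independent noise for each probe set. The simulated arrays held no litters and no change of array spread with handling, so the effect of these was not tested. Precision is limited by the number of mice and of litters.

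Named were all member genes, with per-group values for the brightest probe set of each gene and for called probe sets, the 3 genes most alike to Camk2a, Nrgn and Ppp3ca, and from the pathway list Ppp3r1 and the 6 with the smallest p. Some genes of the pathway list are not reported here. Values of 1437125_at, 1443876_at, 1452572_at and 1439168_at were added after they were seen. The members and lists were chosen with earlier results of these data known. Alternatives were quantile normalization, equal mean and variance, an offset of 32, the upper 50% of signal, no extraction term, 3' to 5' ratios or array variance as covariates, array weights, no trended prior, each extraction alone, and each mouse left out.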

Additional observations from a re-analysis of the deposited data

Results flagged for a closer look

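In 136 groups of member values, 16 had 1 mouse standing apart from the others of its group (Dixon's test), where chance gives about 1 in 20. Values are log2 signals. NH162 was low among non-handled column mice for Camk2b (11.4), Ppp3ca 1438478_a_at (12.7) and Ppp3cb 1427468_at (10.2). NH167 of the same group was low for Camk2a 1437125_at (11.9) and high for Camk2d 1460630_at (7.09), NH166 was low for Camk2d 1459457_at (2.20), and NH156 was low for Camk4 1426167_a_at (6.47). H108 was low among handled column mice for Nrgn (9.90) and Ppp3ca 1426401_at (14.5). H109 was high for Camk2d 1422659_at (8.63) and low for Camk2g 1423942_a_at (7.22), and H116 was high for Ppp3cb 1428473_at (14.5). Among handled Trizol mice H126 was low for Camk2d 1427763_a_at (4.96) and high for Camk2d 1460630_at (6.93), and H113 was low for Camk4 1426167_a_at (6.88). NH147 was high among non-handled Trizol mice for Camk2g 1423941_at (10.9).

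Without H108 the Nrgn difference stayed called, as it did without any other mouse.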

How the results depend on the processing

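The handling count of 4 probe sets became 1 without the extraction term, 2 without the trended prior, 0 within Trizol and 0 with array variance as a covariate, and 2 to 6 with 1 mouse left out. Within columns it was 6, of which 3 were among the 4, and with equal mean and variance 4, of which 3 were. The share of all tested probe sets called also varied, from 11.5% in the main fit. It was 5.11% without the extraction term, 9.4% without the trended prior, 0% within Trizol and 0.149% with array variance. Within columns it was 12%, and with equal mean and variance 7.92%. Under the array variance covariate Camk2a was -0.16 (adjusted p = 0.745), Camk4 0.13 (0.824) and Ppp3cb 1428474_at 0.11 (0.868), and the cause was not tested. The extraction count of 19 became 10 with 3' to 5' ratios as covariates. The handling pair count of 0 became 1 with the offset of 32 (adjusted p = 0.0338), 1 without the trended prior, and 0 to 1 with 1 mouse left out.

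Signs turned in uncalled values for handling: with equal mean and variance Camkk2 -0.0126, Ppp3ca -0.236 and Ppp3cb 1428473_at -0.169; with 3' to 5' ratios Camkk2 -0.0479; within Trizol Camk2d -0.332, Camk2g -0.175 and Camkk2 -0.0494; with array variance Camk2b -0.0627, Camk2g -0.0180 and Camkk2 -0.0804; and with 1 mouse left out Camk2g, -0.0179 to 0.0855. For extraction, Ppp3cb 1428473_at was -0.264 after quantile normalization (adjusted p = 0.0082), -0.131 with equal mean and variance and -0.00398 to 0.0584 with 1 mouse left out, and Camk2g was -0.165 with 3' to 5' ratios.

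Besides the fits without 1 mouse, 11 alternatives were run, and the 4 calls kept their direction under each. The call was lost under 2 of the 11 for Nrgn (within Trizol and with array variance), 3 for Ppp3cb 1428474_at (also without the extraction term, adjusted p = 0.0522), and 7 each for Camk2a 1457311_at (adjusted p from 0.00566 to 0.879) and Camk4 1439843_at (from 0.0345 to 0.824). Quantile normalization moved the median handling difference of all probe sets from -0.15 to 0.02. On the deposited scale that median was -0.42 in the lower 50% of mean signal and -0.02 in the upper 50%. The sign of a small difference can thus depend on the scaling. Ppp3cb 1428473_at, for example, kept its sign after quantile normalization (0.15) and turned with equal mean and variance (-0.17). No paired analysis was made, because handling was done by litter and no pairing of handled with non-handled mice is given.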
